A study of Mus musculus with 5 samples.

Results

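The replication-dependent histone genes encode the bulk H1, H2A, H2B, H3 and H4 proteins that package newly copied DNA. Their transcripts were counted in BV-2, a microglial cell line of the mouse, after urban particulate matter (UPM) and trazodone (TZ, an antidepressant). The genes were taken by name, as every symbol of the forms H1f1 to H1f5, H2ac, H2bc, H3c and H4c followed by digits. This gave 66 of the 40879 symbols listed in each library: 5 of class H1, 18 of H2A, 18 of H2B, 12 of H3 and 13 of H4. There were 5 libraries, 1 per group. The control library is labelled a normal control, and no source used here says whether a vehicle was added to it. The UPM library came from cells exposed to UPM at 50 µg/mL for 23 h. The remaining libraries came from cells given TZ at 1.25, 2.5 or 5 µg/mL for 1 h and then the same UPM exposure (TZ 1.25, TZ 2.5 and TZ 5 below). All 5 groups were the same cell line, and no group received TZ without UPM.

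Replication-dependent histone mRNAs are made in bulk during S phase, when DNA is copied, and are destroyed when replication ends or is blocked. Most metazoan mRNAs end in a poly(A) tail, but these end instead just after a conserved stem-loop, which is bound by the stem-loop binding protein SLBP and is cut with the help of the U7 small nuclear RNA. When the normal cut is bypassed, for example in cells that have left the cell cycle, some of the genes also give longer mRNAs with a poly(A) tail. The libraries were made by QuantSeq, in which an oligo-dT primer starts the copy at a run of A, and were read as single-end reads of 75 bp. An mRNA that ends at the stem-loop has no tail for that primer. The counts below therefore cover those histone transcripts that the primer reached, and the share of each gene's mRNA that this represents was not measured.

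The stem-loop is shown for members named in the results, because it is the feature that sets this family apart from other mRNAs. A stem-loop of 16 bases with a fully paired stem was found in 42 of the 62 members that had a transcript in the reference (GENCODE M21, mouse build GRCm38), on the strand of the mRNA. Capitals mark the stem-loop, and 5 bases are given on each side.
H1f3: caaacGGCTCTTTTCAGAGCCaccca
H1f4: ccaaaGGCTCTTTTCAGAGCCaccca
H2ac8: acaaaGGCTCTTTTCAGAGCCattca
H2ac20: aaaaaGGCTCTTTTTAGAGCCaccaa
H4c4: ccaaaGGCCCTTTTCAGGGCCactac
The form in H1f3, H1f4 and H2ac8 was the same as in 24 members. The form in H4c4 was found in 6 members, and the form in H2ac20 in H2ac20 alone among the 62. There were 8 distinct forms in all. Members without a match in their annotated transcript included H1f5, H2ac22, H2bc4, H2bc18 and H2bc21. No match means only that the annotated transcript lacks these letters, and an annotated transcript can stop before the true end of the mRNA.

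Few members gave usable counts. Over the 5 libraries, totals ran from 6829720 to 7696168 counts, and the 66 members together held 3296 counts in control cells, 3446 with UPM, 2869 at TZ 1.25, 2337 at TZ 2.5 and 2113 at TZ 5. This was 0.0435%, 0.0448%, 0.0396%, 0.0342% and 0.0308% of each library. The number of members with any count was 48, 45, 45, 45 and 47 in the same order. Levels are given as normalised CPM, which is each count as a share of its library total, times 1e6, scaled by TMM factors (a correction for library composition), and a count of 0 allows up to 3 counts, or 0.390 to 0.439 CPM before that scaling. A group of 6 members was at 0 in every library (H2ac19, H2ac25, H2bc23, H2bc24, H2bc27 and H4c17), and 21, these 6 included, never passed 3 counts. H2ac1 and H2bc1, known as testis histones, had at most 1 count in any library. Only 7 members had a mean of at least 10 CPM (H1f3, H1f4, H1f5, H2ac8, H2ac20, H2bc4 and H2bc21), and they held 79.3% to 83.0% of the members' counts. A further 6 lay between 5 and 10 CPM (H1f2, H2ac22, H2bc6, H2bc18, H3c15 and H4c4), and 53 lay below 5 CPM. The 5 CPM line was drawn after the values were seen.

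The annotated 3′ ends differed between these tiers, which is given as a description. Of the 13 members at 5 CPM or more, 8 had a stem-loop, and in 7 of those the annotated transcript ran more than 100 bases past it. The transcript of H1f4 ran 1153 bases past the loop, that of H1f3 4884 bases, that of H4c4 770 bases and that of H2ac8 151 bases. H2ac20 was the exception, with 57 bases after the loop. Of the 49 members under 5 CPM with a transcript, 34 had a loop, and 22 of these transcripts ended within 100 bases of it. A poly(A) signal (AATAAA or ATTAAA in the last 50 bases of a transcript) was found in 4 of the 13 members (H1f2, H2ac8, H2bc6 and H2bc21) and in 8 of the 49. The densest 18-base stretch of the transcript held a median of 12 A in H1, 10 in H2A, 10 in H2B, 9 in H3 and 9.5 in H4. Whether the primer started from a tail or from such an internal stretch was not tested.

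Reads from these genes can also be shared between copies. Over every 75-base window of the transcripts, 57 of the 62 members had at least 1 window found in another transcript, 27 had more than 50% of their windows shared, and 2 had all of them shared. For the members with a mean of at least 10 CPM the shared part was 0% in H1f5 and H2bc21, 1.47% in H1f3, 19.5% in H2ac20, 27.1% in H2bc4, 28.4% in H1f4 and 34.4% in H2ac8. Among lower members described below it was 84.6% in H2ac22, 70.5% in H2ac10, 65.5% in H2ac7, 62.6% in H3c15, 55.4% in H2ac4 and 49.8% in H2bc18, so the counts of these 6 genes are less certain. The windows span whole annotated transcripts, while reads come from near the place where the primer started. These shares may therefore differ from those of the stretches that were read. No source used here says how reads with several matches were counted.

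**Figure D1:**
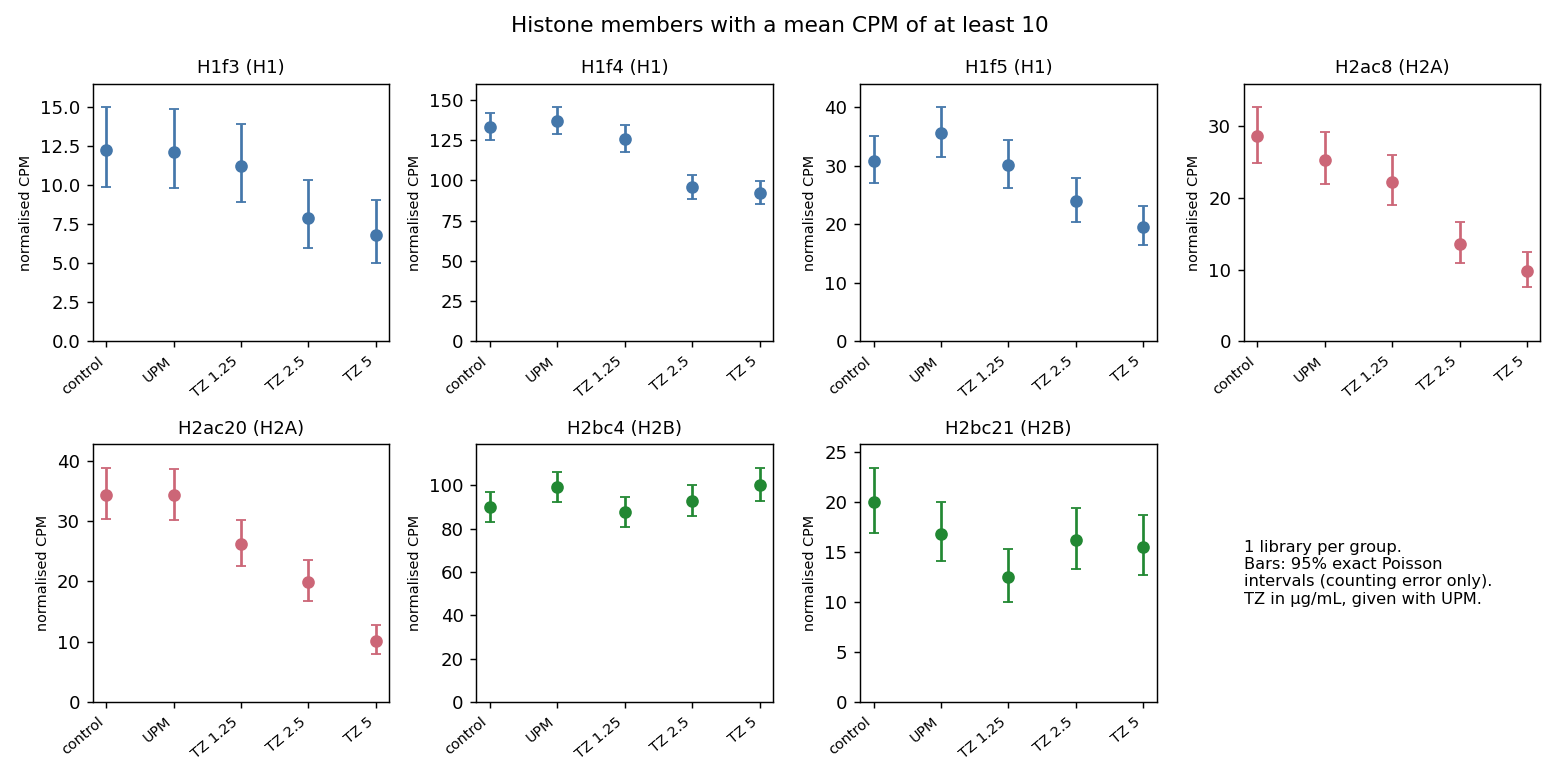
Normalised CPM of the 7 members with a mean of at least 10 CPM, by library, with TZ in µg/mL. Points are single libraries and bars are 95% exact Poisson intervals (counting error only). H2ac20 and H2ac8 are lowest at TZ 5, at 10.2 and 9.86 CPM, while H2bc4 lies between 87.5 and 100.2 CPM in all 5 libraries.

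UPM against control asks what the particles alone did to histone transcripts. No member passed the rule for a difference between 2 libraries (a fold of at least 1.5 in either direction, a 95% counting interval that excludes 1 and a mean of at least 10 CPM in the pair). Of 9 members at that level, 0 were higher and 0 lower, beside 1.67% higher and 1.41% lower among all 8282 genes at that level. The members' median log2 fold was -0.00, and that of all these genes was -0.00. The summed level of the 66 members was 439 CPM in the control and 450 CPM in UPM, a fold of 1.03 (0.978 to 1.08). By class the folds were 1.03 for H1, 0.995 for H2A, 1.05 for H2B, 0.782 for H3 (0.590 to 1.03) and 1.12 for H4, and each of the 5 intervals includes 1. In these pairs of single libraries the intervals cover counting error only, and a comparison of 2 libraries has no replicate check.

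The TZ series asks whether the drug, given before UPM, was followed by other transcript levels. Summed over all 66 members, the level was 450 CPM with UPM alone, 398 at TZ 1.25, 337 at TZ 2.5 and 306 at TZ 5, so it was lower at each higher dose. Against UPM the folds were 0.883 (0.840 to 0.928), 0.749 (0.710 to 0.790) and 0.681 (0.644 to 0.719). TZ 5 was also below the control, at a fold of 0.699 (0.661 to 0.738). Whether fewer cells in S phase or less histone RNA per cell lies behind a lower level cannot be told apart in RNA from whole cultures. A change in the share of histone mRNA that the primer reached cannot be told apart from these either, because that share was not measured.

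Member by member, 0 of the 10 members measured in TZ 1.25 passed the rule for a pair of libraries (1.19% of all genes at that level were higher and 1.03% lower). In TZ 2.5, 3 of 8 were lower and 0 higher (1.73% and 2.67% of all genes): H1f3, H2ac8 and H2ac20. In TZ 5, 3 of 6 were lower and 0 higher (2.8% and 3.78% of all genes): H1f5, H2ac8 and H2ac20. The same 3 were lower in TZ 5 against the control, again of 6 (2.51% of all genes were lower and 3.55% higher). The 3 comparisons against UPM share that library, and the last 2 comparisons share the TZ 5 library, so they are not independent. With the minimum lowered to a mean of 1 CPM, 6 of 19 members were lower in TZ 2.5, 10 of 21 in TZ 5 and 9 of 22 in TZ 5 against control, and 0 were higher. The shares of all genes at that level were 3.59%, 4.6% and 3.87% lower and 4.99%, 5.57% and 5.79% higher. In UPM against control 3 of 24 were then higher and 1 lower (4.56% and 3.46% of all genes), and in TZ 1.25 against UPM 1 of 22 was higher and 1 lower (3.41% and 3.34%). Because the minimum is set on the mean of the pair, a member can reach it through the higher library alone. At 10 CPM this held for the calls of H1f3 in TZ 2.5 and of H2ac8 in TZ 5. At 1 CPM it held for calls of H3c8, H4c14, H4c16 and H4c18, all on few counts, such as 15 in UPM and 1 in TZ 5 for H4c14. Such calls lean on the library where the member is high. The members' median log2 fold against UPM at 10 CPM or more was -0.21, -0.54 and -0.71 with rising dose, beside medians of -0.00, -0.01 and 0.00 for all genes. These medians are over 10, 8 and 6 members, because the mean of each pair sets which members are measured. They are therefore not a series over the same genes.

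The dose of TZ was also tested as a number, in edgeR's quasi-likelihood test over all 5 libraries with a term for UPM and a term for the TZ dose, with Benjamini-Hochberg adjustment over the 12381 genes tested. This fit is the one test here with residual degrees of freedom, which were 2, beside 48.7 borrowed across genes. Those 2 come from how far the libraries with UPM lie from a straight line over dose, since the control is fitted exactly. With 1 library per group, the p-values of this fit do not measure spread between repeat cultures. Dose cannot be told apart from differences between single cultures. Of the 66 members 25 passed the fit's filter on low counts (5 of H1, 6 of H2A, 6 of H2B, 2 of H3 and 6 of H4), and 41 were not tested. The dose term was lower for 4 of the 25 and higher for 0, beside 2.5% lower and 2.95% higher among all tested genes. The 4 were H1f4, H1f5, H2ac8 and H2ac20. The estimate was below 0 for 22 of the 25, beside 49.1% of all tested genes, and its median was -0.18 log2 per µg/mL, beside 0.00. At an unadjusted p under 0.05 there were 9 members lower and 0 higher, beside 8.42% lower and 9.15% higher among all tested genes. The UPM term of the same fit passed for 0 of the 25 in edgeR (0.0808% of all genes were higher and 0.0323% lower), with 0 at an unadjusted p under 0.05 (4.26% higher and 3.53% lower among all genes), a smallest adjusted p of 0.655 and 0 calls in DESeq2.

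**Figure D2:**
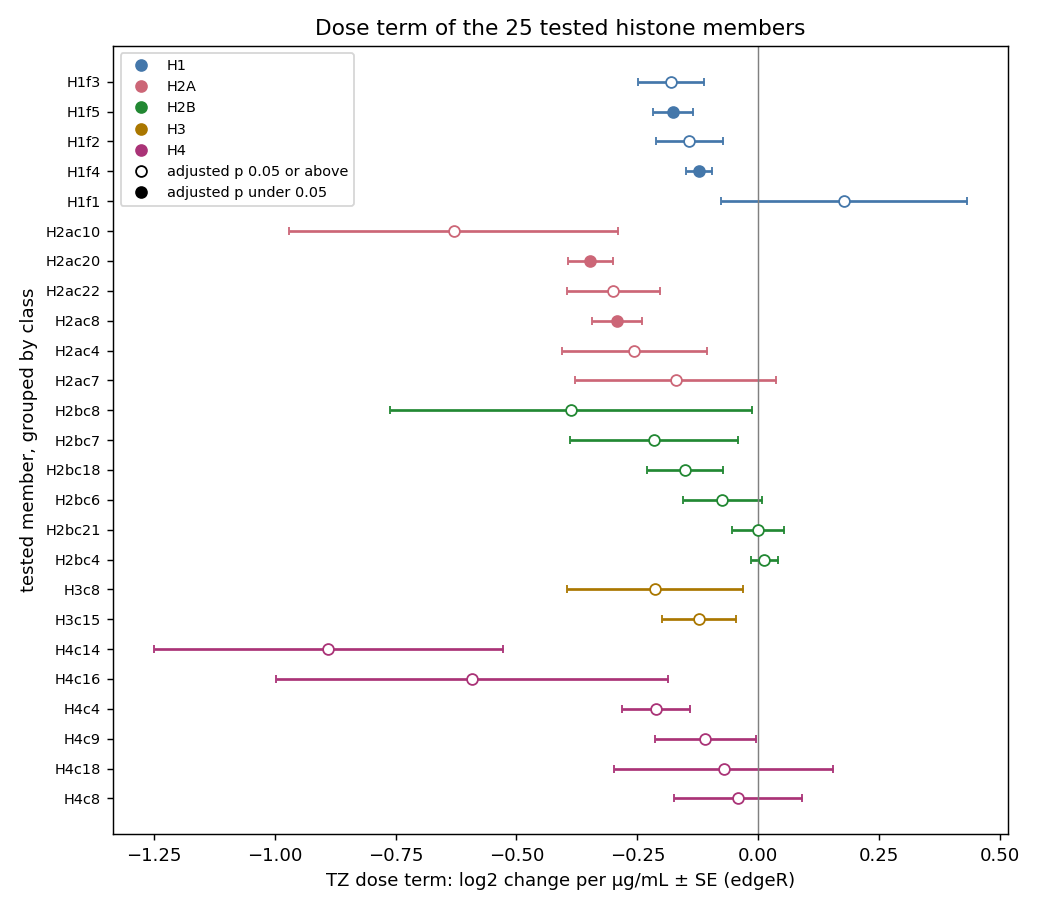
TZ dose term of the 25 tested members in edgeR, as log2 change per µg/mL with its SE, grouped by class. Filled points passed an adjusted p of 0.05 over all genes: H1f4, H1f5, H2ac8 and H2ac20, all left of 0, while H2bc4 and H2bc21 sit at 0.01 and 0.00.

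The linker histones of class H1 bind where DNA enters and leaves the nucleosome and help to compact chromatin. H1f4 was at 133 CPM in control cells, 137 with UPM, 126 at TZ 1.25, 95.6 at TZ 2.5 and 92.2 at TZ 5. The libraries at the 2 higher doses were below the other 3, and their counting intervals do not overlap with those of the other 3. H1f4 fell by 0.12 log2 per µg/mL (SE 0.027, edgeR adjusted p = 0.00271), although its fold in TZ 5 against UPM, 0.674 (0.610 to 0.745), was just short of the size needed for a call between libraries.

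H1f5 was at 30.9 CPM in control cells, 35.5 with UPM, 30.1 at TZ 1.25, 24.0 at TZ 2.5 and 19.6 at TZ 5. It was lower at each higher dose, and TZ 5 was also below the control. Its fold in TZ 5 against UPM was 0.551 (0.445 to 0.680), and it fell by 0.18 log2 per µg/mL (SE 0.042, edgeR adjusted p = 0.00613). H1f3 was at 12.2, 12.2, 11.2, 7.94 and 6.82 CPM in the same order of libraries. It was called lower in TZ 2.5, at a fold of 0.653 (0.459 to 0.921). The mean of that pair, 10.05 CPM, reached the minimum only through the UPM library. In TZ 5 its fold was 0.561 (0.386 to 0.805), but the pair's mean of 9.49 CPM was under the minimum, and its dose estimate of -0.18 (SE 0.068) did not pass (edgeR adjusted p = 0.123).

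H1f2 was at 12.9 CPM in control cells, 11.8 with UPM, 8.45 at TZ 1.25, 9.82 at TZ 2.5 and 6.67 at TZ 5, with a dose estimate of -0.14 (SE 0.070, edgeR adjusted p = 0.272). H1f1, the last of the class, never passed 12 counts and had the only positive dose estimate of the 5, at 0.18 (SE 0.25). As a class the H1 genes summed to 191, 197, 177, 138 and 126 CPM. Without H1f4 the fold in TZ 5 against UPM was 0.571 (0.486 to 0.669), beside 0.643 (0.591 to 0.699) with it.

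Class H2A forms a dimer with H2B in the outer part of the nucleosome core. H2ac20, from the histone cluster on chromosome 3, was at 34.3 CPM in control cells, 34.2 with UPM, 26.2 at TZ 1.25, 19.9 at TZ 2.5 and 10.2 at TZ 5. The control and UPM were level, and each TZ library was lower than the one before it. H2ac20 fell by 0.35 log2 per µg/mL (SE 0.047, edgeR adjusted p = 1.09e-06), and its fold in TZ 5 against UPM was 0.297 (0.224 to 0.387). In TZ 2.5 the fold was 0.582 (0.470 to 0.718), and in TZ 1.25 it was 0.765 (0.631 to 0.926), an interval that excludes 1 without reaching the size of a call.

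H2ac8, from the cluster on chromosome 13, was at 28.6 CPM in control cells, 25.4 with UPM, 22.3 at TZ 1.25, 13.6 at TZ 2.5 and 9.86 at TZ 5. Both higher doses lay below the other libraries, and TZ 1.25 lay within the counting error of UPM. H2ac8 fell by 0.29 log2 per µg/mL (SE 0.052, edgeR adjusted p = 0.000172), with a fold of 0.535 (0.414 to 0.688) in TZ 2.5 and 0.389 (0.291 to 0.515) in TZ 5 against UPM.

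Other H2A genes were measured less well. H2ac22 was at 4.79 CPM in control cells, 7.71 with UPM, 7.07 at TZ 1.25, 5.20 at TZ 2.5 and 2.76 at TZ 5, and its dose estimate of -0.30 (SE 0.095) missed the limit (edgeR adjusted p = 0.0513). H2ac4, H2ac7 and H2ac10 had dose estimates of -0.26, -0.17 and -0.63, none of which passed, and each had at most 28 counts in a library. Summed over the 18 genes, H2A was at 76.7 CPM in control cells, 76.3 with UPM, 61.3 at TZ 1.25, 43.0 at TZ 2.5 and 27.4 at TZ 5. The fold in TZ 5 against UPM was 0.359 (0.303 to 0.424), and without H2ac20 and H2ac8 it was 0.442 (0.313 to 0.616). In the counts as deposited, the lower sum was therefore not limited to these 2 genes. The counts left without them were 128 in UPM and 51 in TZ 5, of which H2ac22 held 59 and 19. H2A copies share much of their sequence, and how reads with several matches were counted is not known. Leaving out the 2 genes therefore cannot exclude that their reads are among the counts left.

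**Figure D3:**
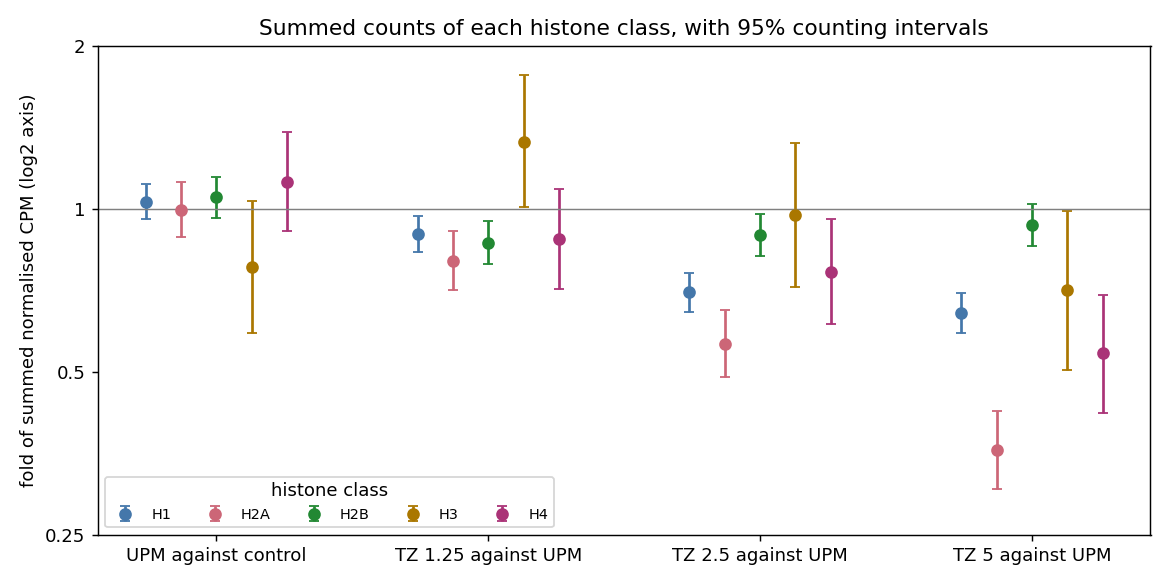
Fold of summed normalised CPM for each histone class (log2 axis), for UPM against control and each TZ dose against UPM, with 95% exact counting intervals from single libraries. In TZ 5 the H2A fold is 0.359 and the H2B fold 0.934.

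In class H2B, 2 genes held most of the counts, and neither passed the dose test. H2bc4 was at 89.8 CPM in control cells, 98.9 with UPM, 87.5 at TZ 1.25, 92.8 at TZ 2.5 and 100.2 at TZ 5. It was higher at each step from TZ 1.25 to TZ 5, but UPM without TZ was near the level of TZ 5. The fold was 0.884 (0.794 to 0.984) in TZ 1.25 against UPM and 1.12 (1.002 to 1.24) in TZ 5 against the control. Both intervals exclude 1 without reaching the size of a call. Its dose estimate was 0.01 log2 per µg/mL (SE 0.027, edgeR adjusted p = 0.863). H2bc21 was at 19.97 CPM in control cells, 16.9 with UPM, 12.5 at TZ 1.25, 16.2 at TZ 2.5 and 15.5 at TZ 5. Its lowest library was TZ 1.25, at a fold of 0.740 (0.559 to 0.976) against UPM, and its dose estimate was 0.00 (SE 0.054, edgeR adjusted p = 0.999). In TZ 5 against UPM the fold was 1.01 (0.912 to 1.12) for H2bc4 and 0.921 (0.706 to 1.20) for H2bc21. Neither gene has a stem-loop match in its annotated transcript. The transcript of H2bc21, of 2620 bases, ends at a poly(A) signal, and that of H2bc4 has none. These features were also found in members with lower levels. H1f5, H2ac22 and H2bc18 have no match either, at folds of 0.551, 0.357 and 0.607 in TZ 5 against UPM. H2ac8 has a poly(A) signal, at a fold of 0.389. Any link between these features and the levels was not tested.

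The H2B genes left after these 2 were closer to the other classes. Summed over the 18 genes H2B was at 133, 139, 121, 125 and 130 CPM from the control to TZ 5, with a fold of 0.934 (0.853 to 1.02) in TZ 5 against UPM. Without H2bc4 and H2bc21, removed after their values were seen, the sums were 22.8, 23.4, 20.7, 15.6 and 14.2 CPM and the fold was 0.608 (0.470 to 0.782). H2bc18 was at 8.65, 9.80, 7.62, 5.20 and 5.95 CPM, and H2bc6 at 8.79, 7.58, 5.68, 6.50 and 5.51 CPM. Neither passed the dose test, with estimates of -0.15 for H2bc18 (SE 0.078, edgeR adjusted p = 0.308) and -0.07 for H2bc6 (SE 0.082, edgeR adjusted p = 0.706). For all 66 members, removing the same 2 genes moved the fold in TZ 5 against UPM from 0.681 to 0.570 (0.533 to 0.610).

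Classes H3 and H4 form the tetramer at the centre of the nucleosome, and both gave few counts. H3c15 was at 8.65 CPM in control cells, 8.36 with UPM, 12.5 at TZ 1.25, 8.08 at TZ 2.5 and 6.38 at TZ 5. The TZ 1.25 library was the highest, at a fold of 1.49 (1.07 to 2.09) against UPM, and the dose estimate of -0.12 (SE 0.076) did not pass (edgeR adjusted p = 0.438). H3c8, the other H3 gene tested, had at most 25 counts in a library and an estimate of -0.21 (SE 0.18, edgeR adjusted p = 0.611). The H3 sum was 15.7, 12.3, 16.4, 11.98 and 8.70 CPM, and its fold against UPM was 1.33 (1.01 to 1.76) in TZ 1.25 and 0.708 (0.504 to 0.990) in TZ 5.

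H4c4 was at 11.3 CPM in control cells, 12.5 with UPM, 10.4 at TZ 1.25, 7.36 at TZ 2.5 and 6.24 at TZ 5. It was lower at each higher dose, with a fold of 0.497 (0.339 to 0.719) in TZ 5 against UPM at a mean of 9.39 CPM, under the minimum for a call. Its dose estimate was -0.21 (SE 0.070, edgeR adjusted p = 0.0627). All 6 tested H4 genes had negative dose estimates, from -0.89 to -0.04, and none passed. The most negative, H4c14, rests on 5, 15, 1, 2 and 1 counts. The H4 sum was 23.2, 26.0, 22.9, 19.9 and 14.1 CPM, with a fold of 0.541 (0.420 to 0.693) in TZ 5 against UPM.

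Low members followed the same order when summed. The 53 members under 5 CPM gave 34.7 CPM in control cells, 32.7 with UPM, 30.6 at TZ 1.25, 25.3 at TZ 2.5 and 18.6 at TZ 5. Their fold in TZ 5 against UPM was 0.568 (0.456 to 0.706). Among the 13 members at 5 CPM or more, 7 were lower at each step from UPM to TZ 5 (H1f3, H1f4, H1f5, H2ac8, H2ac20, H2ac22 and H4c4), beside 9.32% of the 9656 genes at that level. For 10 of the 13 the lowest of the 5 libraries was TZ 5, beside 22.6% of those genes. Both counts were defined after the values were seen, and the 3 exceptions to the second were H2bc4, H2bc18 and H2bc21.

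Many members are neighbours, and some share the stretch between their starts. Of the 62 members in the RefSeq table, 52 lie on chromosome 13 and 10 on chromosome 3, and 11 pairs of an H2A and an H2B gene start within 163 to 280 bases of each other on opposite strands. H2ac20 and H2bc21 are such a pair, with starts 191 bases apart. H2ac20 fell from 34.2 to 10.2 CPM between UPM and TZ 5, while H2bc21 was at 16.9 and 15.5 CPM. The difference between the genes of the pair was not tested. H2bc4 is paired with H2ac6, whose counts were 3, 0, 1, 1 and 0. H2ac8 is paired with H2bc8, which had 4, 2, 11, 1 and 1 counts, too few to compare.

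The promoter of H2ac20 is printed because it holds the stretch between that gene and H2bc21, and that of H1f4 because H1 genes carry a box of their own. Sequences are from RefSeq (mouse build GRCm38.p6), 250 bases before to 50 after the annotated start, on the minus strand, at chr3:96220831-96221130 for H2ac20 and chr13:23622509-23622808 for H1f4. Capitals mark matches on either strand to the TATA box (TATAAA), the CCAAT box (CCAAT), the octamer (ATTTGCAT) and the H1 box (AAACACA).
H2ac20: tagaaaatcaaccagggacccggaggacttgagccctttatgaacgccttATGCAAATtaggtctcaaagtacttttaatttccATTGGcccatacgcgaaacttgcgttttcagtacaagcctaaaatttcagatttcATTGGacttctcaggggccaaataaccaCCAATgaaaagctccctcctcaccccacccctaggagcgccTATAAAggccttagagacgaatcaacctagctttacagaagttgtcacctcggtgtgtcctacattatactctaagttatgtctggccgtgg
H1f4: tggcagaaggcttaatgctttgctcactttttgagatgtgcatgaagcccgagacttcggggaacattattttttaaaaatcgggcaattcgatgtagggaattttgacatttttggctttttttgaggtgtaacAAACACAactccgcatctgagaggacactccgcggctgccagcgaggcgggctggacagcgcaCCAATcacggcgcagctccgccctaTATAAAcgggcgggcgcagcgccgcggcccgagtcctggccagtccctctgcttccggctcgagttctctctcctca
With the start at position 0, H2ac20 had an octamer at -200, CCAAT boxes at -166, -111 and -83 and a TATA box at -42. H1f4 had an H1 box at -115, a CCAAT box at -52 and a TATA box at -27. The octamer and the first 2 CCAAT boxes of H2ac20 lie on the other strand, and no 2 matches in these windows overlap.

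Over the 58 windows of the 57 members with a promoter in the table, the octamer was found in 13, of which 6 were of H2A (of 17) and 7 of H2B (of 15), beside 1.74% of all 32851 windows. The H1 box was found in 8, of which 4 were of the 5 H1 genes, beside 7.18% of all windows. A CCAAT box was in 50, beside 37.4%, and a TATA box in 34, beside 13.6%. The CCAAT box was in every window of H1, H2A, H2B and H3, but in only 3 of the 11 windows of H4. Windows of paired genes overlap, so their matches are counted more than once. A match of letters is a description and not a shown binding site.

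Genes linked to the same pathway were read from lists, by the same dose term. The replication-independent histones are variants whose supply is not tied to DNA copying, most of them from polyadenylated mRNAs, although H2ax is known to give a stem-loop mRNA as well. In that list 9 of 11 were tested and 1 passed, in the lower direction. It was Cenpa, the centromeric H3, known to be made mainly in G2, at 193, 238, 205, 190 and 173 CPM (-0.09 log2 per µg/mL, SE 0.023, edgeR adjusted p = 0.0149). H3f3b, which encodes the replacement histone H3.3, was at 534, 501, 493, 495 and 529 CPM. The list summed to 1557, 1571, 1514, 1512 and 1509 CPM, a fold of 0.960 (0.935 to 0.986) in TZ 5 against UPM. The list's median dose estimate was 0.00, beside -0.18 for the replication-dependent members. H2ax was listed at 0 in all 5 libraries, and H1f0, H2az1, H3f3a and H3f3b had edgeR adjusted p-values from 0.690 to 0.960. H1f10, a linker histone variant named after its values were seen, was at 32.9, 33.2, 26.2, 24.97 and 20.7 CPM. It was the 1 gene of the list called lower in TZ 5 against UPM and against the control, and its dose estimate of -0.13 (SE 0.042) did not pass (edgeR adjusted p = 0.0599).

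A list of 28 genes covered histone mRNA 3′ processing, and also histone transcription and RNA decay. Of these, 27 were tested and 1 passed, again in the lower direction. It was Snrpd3, an Sm protein shared with the splicing machinery (-0.16, SE 0.022, edgeR adjusted p = 2.60e-06). Slbp itself was at 8.79 CPM in control cells, 12.8 with UPM, 8.32 at TZ 1.25, 12.8 at TZ 2.5 and 10.0 at TZ 5, with no order by dose (edgeR adjusted p = 0.844). Npat, the coactivator of histone transcription in S phase, was at 55.5, 60.4, 51.0, 56.6 and 58.3 CPM. Casp8ap2, Lsm10 and Lsm11, which act in transcription or 3′ cutting of histone mRNAs, did not pass (edgeR adjusted p = 0.598, 0.349 and 0.960), and Zfp473, at 0.416 to 0.915 CPM, was below the filter. Of 20 histone chaperones 1 passed, in the higher direction: Npm1, which also acts in the nucleolus (0.10, SE 0.022, edgeR adjusted p = 0.00166).

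Summed over the list, S-phase genes had no order by dose. Of 40 tested, Ccne2 and Fen1 were higher with dose and Mcm7, a subunit of the replicative helicase, was lower, and the median estimate was 0.02. The list summed to 4250, 4028, 4163, 4025 and 4059 CPM, a fold of 1.01 (0.991 to 1.02) in TZ 5 against UPM. Pcna, the sliding clamp of DNA polymerase, was at 59.4, 68.2, 68.2, 57.0 and 62.4 CPM (edgeR adjusted p = 0.657), and the cyclins Ccne1 and Ccna2 did not pass either (0.957 and 0.753). Of 22 G2/M genes 3 were lower (Bub1b, Cdc20 and Plk1). That list summed to 5068, 5135, 5015, 4905 and 4799 CPM, so it was lower at each step from UPM to TZ 5. Its fold in TZ 5 against UPM was 0.935 (0.921 to 0.948). The background for these dose counts is the 2.5% lower and 2.95% higher of all genes given above. In the UPM term 0 members of any of these lists passed.

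Other RNAs that lack a normal poly(A) tail were read beside the histones. A list of 158 small nucleolar, small Cajal body and related RNAs summed to 918 CPM in control cells, 1129 with UPM, 1047 at TZ 1.25, 683 at TZ 2.5 and 494 at TZ 5. Its fold in TZ 5 against UPM was 0.438 (0.421 to 0.456). Of 65 tested, 14 were lower with dose and 0 higher, with a median of -0.22. With UPM alone this sum was also above the control, and by more than the histone sum of 450 against 439 CPM. The histone sum and the small RNA sum were both lowest at TZ 5, and any part of the one in the other was not tested.

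**Figure D4:**
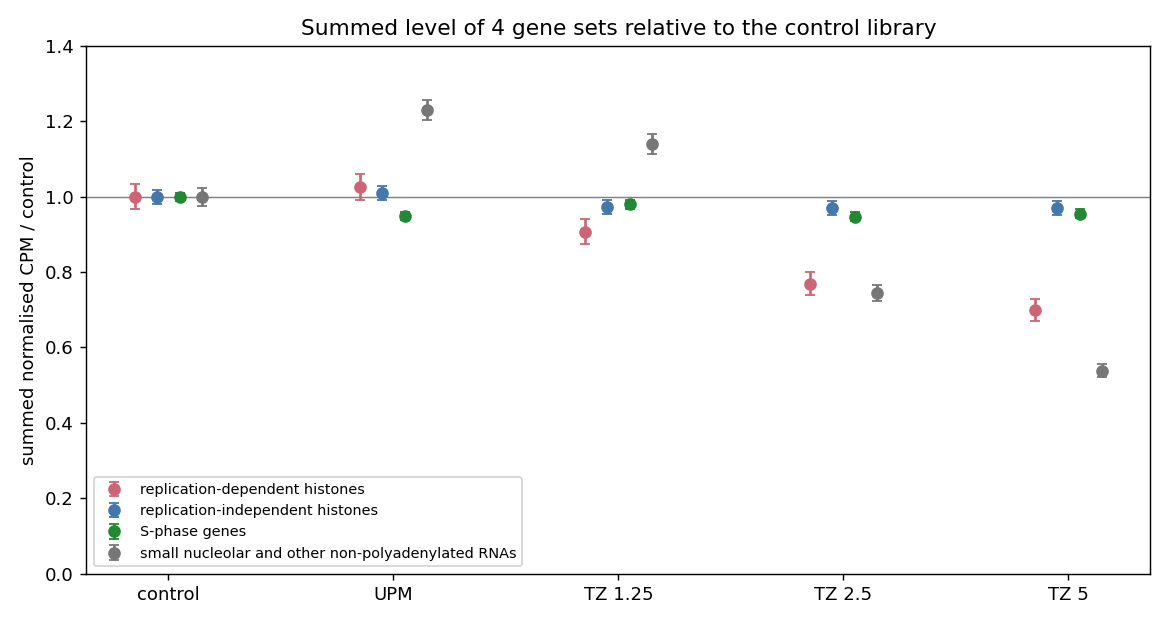
Summed normalised CPM of 4 gene sets divided by the control library's value, in each of the 5 libraries, with 95% exact Poisson intervals of each sum (counting error only). In TZ 5 the replication-dependent histones sit at 306 CPM against 439 in the control and the small RNAs at 494 against 918, the replication-independent histones at 1509 against 1557, and the S-phase genes at 4059 against 4250.

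Markers of the labelled cell type were present. The 12 microglia markers summed to 3081 to 3486 CPM, highest in TZ 5, although P2ry12 and Tmem119, known from microglia in the brain, were at 0.666 to 1.595 and 3.06 to 7.45 CPM. Of the 12, Aif1 alone passed the dose test, in the higher direction (0.09 log2 per µg/mL, SE 0.023, edgeR adjusted p = 0.00666). At an unadjusted edgeR p under 0.05 there were 4 of the 12, in either direction. The shares of all tested genes at that limit were 8.42% lower and 9.15% higher. Cx3cr1, named after its values were seen, was at 14.0, 16.6, 18.6, 15.3 and 10.2 CPM from the control to TZ 5. It was the 1 marker of the 12 called lower in TZ 5 against UPM, and its dose estimate of -0.15 (SE 0.058) did not pass (edgeR adjusted p = 0.112). Astrocyte markers summed to 0.133 to 1.16 CPM, neuron markers to 0 to 0.435, oligodendrocyte markers to 1.597 to 3.90, fibroblast markers to 0.554 to 5.34 and endothelial markers to 14.1 to 16.9, nearly all from Kdr. Aqp4 and Mog were at 0 in every library.

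Among the 4 members called by dose, H2ac20 and H2ac8 passed in all 8 alternatives that gave an adjusted p. Without the UPM library only these 2 passed, with edgeR adjusted p = 0.0961 for H1f4 and 0.147 for H1f5, and without the TZ 5 library H1f5 was lost (0.147). DESeq2 gave an adjusted p for 2 of the 9 members compared, H1f4 (0.0212) and H2bc4 (0.927), and left the others without one; its unadjusted p was 6.21e-07 for H2ac20, 0.000247 for H2ac8 and 0.00603 for H1f5.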

How the data were processed

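Raw counts per gene symbol, whole numbers in 1 table per library, were used as the authors deposited them. Per the submitters' processing notes, STAR, edgeR and genome build GRCm39 were used, and no source used here names the counting program, the annotation or the handling of strand and of reads with several matches. No row lacked a name and no 2 libraries were identical. Without molecular identifiers, reads from PCR are not independent molecules, and the intervals and the limit at a count of 0 speak only of counting error.

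CPM was scaled by TMM factors over all 5 libraries. Folds between 2 libraries have 95% exact conditional binomial (Clopper-Pearson) intervals. The dose model (R 4.3.3 with edgeR 4.0.16 and limma 3.58.1) used the 12381 genes left by filterByExpr, with a UPM term and a linear TZ term, and p-values were adjusted by Benjamini-Hochberg with 0.05 as the limit. SE is the absolute estimate over the square root of F. The single control library is taken to vary as the others do. Scripts were tested on simulated data. DESeq2 1.42.0 was an alternative, beside other scaling, filters, fold limits, dose as rank and leaving out each library.

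Named are all members with a mean of at least 10 CPM or a call, companion genes fixed by name and companion genes called in a term; other members named, those between 5 and 10 CPM among them, were chosen after their values were seen. The members and lists were chosen with earlier results of these data known. Transcripts, promoters and chromosomes came from an earlier build, GRCm38, so transcript ends may differ from those counted. RefSeq held 62 of the 66 members. Protein identity within a class was not analysed here.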

Additional observations from a re-analysis of the deposited data

How the results depend on the processing

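No paired analysis was possible because each group had 1 library. Counts of members between libraries depended on the level required. With a mean of at least 1 CPM, UPM against control had 3 of 24 measured members higher and 1 lower, TZ 1.25 against UPM had 1 of 22 higher and 1 lower, and the lower members numbered 6 of 19 in TZ 2.5, 10 of 21 in TZ 5 and 9 of 22 in TZ 5 against control. The shares of all genes at that level stand beside these counts in the results above, with the members that reached the minimum through the higher library alone. With a mean of at least 30 CPM, at which 2 members were measured, 0 were lower in each of these last 3 comparisons. With a fold limit of 2, 0 were lower in TZ 2.5. The median of the measured members in place of the sum gave folds of 0.686 in TZ 2.5 (8 members) and 0.609 in TZ 5 (6 members) against UPM. For the dose term, the DESeq2 Wald test called 1 member lower, H1f4, of the 2 with an adjusted p. Leaving out each library in turn called 2 to 4 lower and 0 higher, with 2 (H2ac20 and H2ac8) without UPM and 3 without TZ 5. The cause of these shifts was not tested, except that fewer members are measured at a higher minimum and that DESeq2 set no adjusted p for most members. H2ac22 passed with DESeq2 size factors in edgeR (adjusted p = 0.0467) and with no filter (0.0386), within 0.0386 to 0.683 over its alternatives, and H4c4 passed with dose as rank (edgeR adjusted p = 0.0406), within 0.0406 to 0.472. Of the 106 alternative values of the sums and counts, 91 lay within the counting interval of the sum or within 1.5 times the count as reported. Many of the 91 set a count of 0 beside a count of 0, such as all those of the UPM term. This tally therefore does not measure how stable the lower calls were. Among the 91, the sum in UPM against control, with an interval that includes 1, moved from a fold of 1.03 to 0.997 with the median in its place. No sum with an interval that excluded 1 and no dose estimate of a called member changed direction. Counts of calls were compared by size alone, separately for higher and lower, so a reversal could not be scored for them. The 41 members left untested had too few counts for the filter, and the cause of their low counts was not tested.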
